A study of Homo sapiens with 11 samples.

Results

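The NDRG family (N-myc downstream regulated genes) was followed by the 4 count rows that carry the symbols NDRG1, NDRG2, NDRG3 and NDRG4. These were 4 of 60676 counted genes, and all 4 were among the 19981 genes that passed the filter on low counts. The cells were RWPE1, a line of immortalized, non-tumorigenic prostate epithelial cells. These cells formed 4 groups, compared by bulk RNA-seq, namely untreated cells in normoxia (called 0 h, 3 libraries) and cells kept at 1% oxygen for 6 h (3 libraries), 12 h (3 libraries) or 24 h (2 libraries). A further 24 h library (replicate 3) was not analysed here. Hypoxic cells were also given medium with 10 mM HEPES, so the effects of oxygen and of the buffer cannot be told apart in any contrast with normoxia. All groups came from 1 cell line, and nothing stated that replicates were separate cultures, so the p-values measure the spread between these libraries, which may be technical.

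NDRG proteins share the fold of alpha/beta hydrolases but have no known enzymatic activity. NDRG1 is a stress-response gene, known to be induced by hypoxia and repressed by Myc, and loss of the protein causes a demyelinating neuropathy. NDRG2 is known from astrocytes and as a candidate tumor suppressor, NDRG3 as a lactate-binding protein that prolyl hydroxylation marks for degradation, and NDRG4 from brain and heart. The labels give the purpose of the series as a comparison of the RWPE1 transcriptome between normoxia and hypoxia, and here that comparison was made for the 4 paralogs.

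Library totals ran from 27496009 to 49488345 counted reads, and the factors of TMM scaling from 0.539 to 1.32. The lowest factor belonged to 24 h replicate 2, which lay 139.9 from 24 h replicate 1 in Euclidean distance over log2 CPM of all tested genes, against 40.3 to 87.1 within the other groups. The fold changes of the 4 members at 24 h against normoxia are therefore also given without that library. For other genes and for the gene lists this was done only in part. All 6 markers of basal prostate epithelium were expressed, with a summed level of 8250 to 11227 TMM-scaled counts per 1000000 reads (CPM) in normoxia. In hypoxia the sum spanned 11736 to 17891 (6 h), 18401 to 20991 (12 h) and 16569 to 21234 (24 h). The 6 markers did not move together. Means of KRT5, KRT14 and ITGA6 rose at each time. KRT15 fell from 292 CPM to 88.0, 121 and 139.5 at 6, 12 and 24 h, and TP63 from 242 to 73.5, 125 and 85.7. ITGB4 went from 358 CPM to 339, 298 and 272.5. The summed level of 7 luminal markers was 232 to 262 CPM in normoxia and spanned 622 to 812 (6 h), 822 to 892 (12 h) and 1068 to 1799 (24 h), mostly from KRT8 and KRT18, which are not restricted to luminal cells. KLK3 was at 0 in all libraries, and TMPRSS2 stayed under 1 CPM. Markers of other cell types were mostly low. All 5 neuronal and all 5 Schwann cell markers stayed under 1 CPM, as did all 4 endothelial and all 4 leukocyte markers. Among 5 astrocyte markers AQP4 was at 0 and only SLC1A3 exceeded 1 CPM (14.3 to 111), with a summed level of 14.8 to 21.0 in normoxia and 40.1 to 112 in hypoxia, and among 5 fibroblast markers only COL1A1 did (27.7 to 60.5). In bulk RNA a change in the share of cells that express a gene and a change in RNA per cell cannot be told apart.

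NDRG1 rose 3.93- to 5.85-fold in hypoxia and was the only paralog called at all 3 times. A gene was called where edgeR's quasi-likelihood test gave p under 0.05 after Benjamini-Hochberg correction for 19981 genes. The gene (ENSG00000104419) lies on chromosome 8, 133237175 to 133302022 of GRCh38, on the minus strand. The normoxic libraries held 72126, 73682 and 81011 NDRG1 counts, or 1667, 1964 and 1948 CPM. At 6 h the counts were 215524, 246881 and 346659, or 7364, 8007 and 6570 CPM. At 12 h they were 247050, 409747 and 530729, or 8357, 12142 and 12124 CPM. At 24 h they were 220955 and 189775, or 9454 and 10342 CPM. Every hypoxic library was above every normoxic library, and the lowest hypoxic value was 6 h replicate 3.

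The mean CPM of NDRG1 was 1859 ± 167 (SD, n = 3) in normoxia, 7314 ± 719.5 (n = 3) at 6 h, 10874 ± 2180 (n = 3) at 12 h and 9898 ± 628 (n = 2) at 24 h. Against normoxia the log2 fold change was 1.98 at 6 h (standard error 0.22, edgeR adjusted p = 2e-05), a 3.93-fold rise. It was 2.55 at 12 h (standard error 0.23, edgeR adjusted p = 6.2e-06), or 5.85-fold. At 24 h it was 2.41 (standard error 0.24, edgeR adjusted p = 6.31e-06), or 5.32-fold. An exact two-sided permutation test of log2 CPM gave p = 0.1 at 6 h and 12 h and 0.2 at 24 h, the smallest values that 3 libraries against 3 and 2 against 3 allow. These calls held in each of 20 alternatives, with log2 fold changes between 1.65 and 2.05 (6 h), 2.09 and 2.71 (12 h) and 1.48 and 2.45 (24 h). Without 24 h replicate 2 the 24 h value was 2.33.

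Of the 4 members, 1 was called at 6 h, against 52.8% of all tested genes, and 1 at 12 h, against 51.2%. At 24 h 2 were called, NDRG1 and NDRG3, against 61.2% of all genes. All of these calls were higher in hypoxia, where 25.1%, 24.2% and 29.9% of all genes were called higher at 6, 12 and 24 h and 27.7%, 27.1% and 31.3% lower. No member was called lower by edgeR, limma-voom or DESeq2 with all libraries and the scaling of each tool, and none was lower at an unadjusted p under 0.05. With library size as the only scaling NDRG2 was called lower at 12 h and 24 h, and without 24 h replicate 1 NDRG4 was called lower at 24 h. Hypoxic and normoxic libraries did not overlap for 1 member at 6 h, 2 at 12 h and 3 at 24 h, against 69.6%, 72.3% and 73.0% of all genes. In edgeR the members' shares called in either direction were thus below those of all genes at 6 h and 12 h and near theirs at 24 h. The share not overlapping at 24 h was also near that of all genes. With 4 members 1 call moves such a share widely, and DESeq2 called 2 members at 12 h and 3 at 24 h. These shares are therefore not read as a result about the family.

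**Figure D1:**
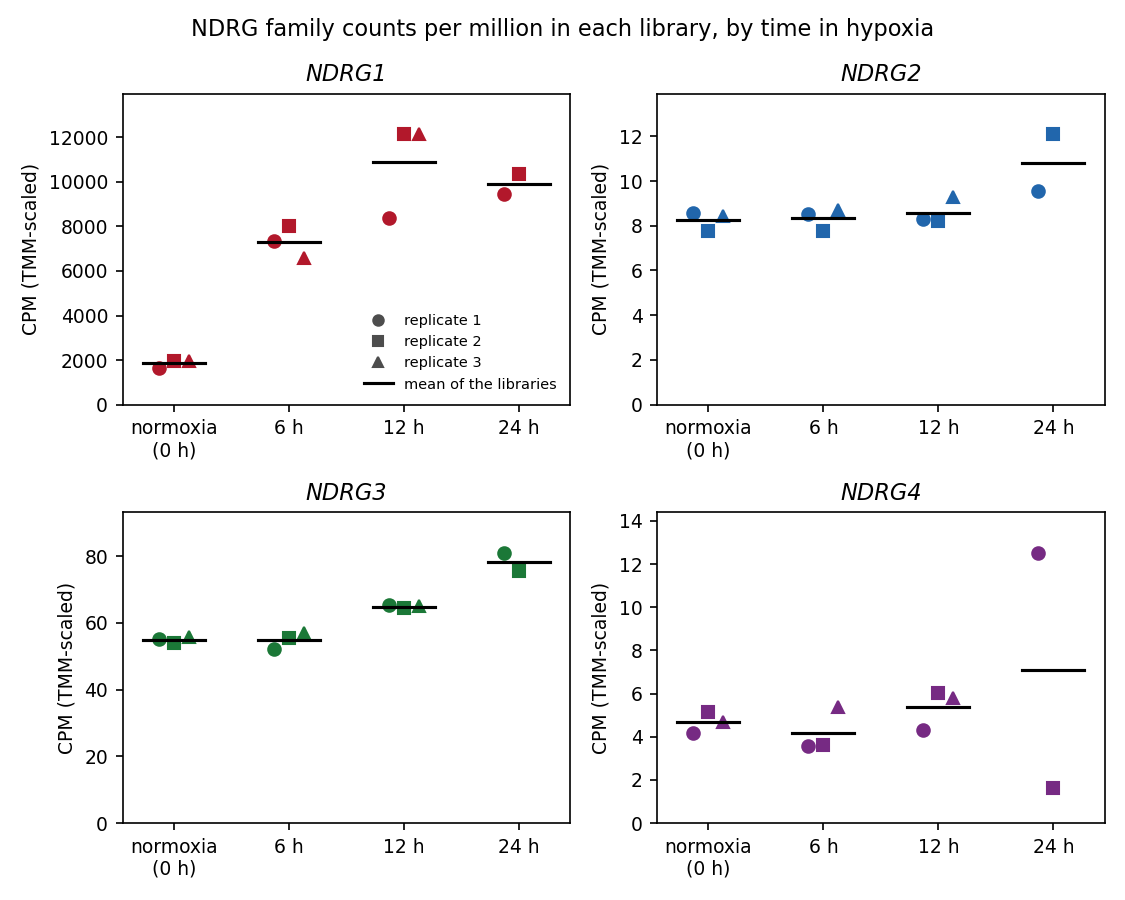
TMM-scaled counts per 1000000 reads of each NDRG gene (y axis, linear from 0, 1 panel per gene) in each library against time in hypoxia (x axis), with point shapes for replicates and bars for means. All 8 hypoxic libraries of NDRG1 lie at 6570 CPM or above against at most 1964 in normoxia, while the 24 h libraries of NDRG4 lie at 12.5 and 1.63.

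NDRG1 was also among the most counted transcripts of these cells. It took 0.219% to 0.260% of all counted reads in normoxia, rising to 0.700% to 0.824% (6 h), 0.760% to 1.20% (12 h) and 0.557% to 0.804% (24 h). The highest share, in 12 h replicate 2, had a Wilson 95% interval of 1.2008% to 1.2081%, which covers counting error only. By counts NDRG1 ranked 23 to 27 of all genes in the normoxic libraries, 6 to 8 after 6 h, 3 to 10 after 12 h, and 7 and 22 after 24 h, the last in 24 h replicate 2. In 12 h replicate 2 only 2 genes, both nuclear, had more counts. These ranks favour long genes, and per kilobase of all annotated exons NDRG1 ranked 236 to 271 in normoxia, 94 to 119 after 6 h, 66 to 140 after 12 h and 152 and 246 after 24 h. Per kilobase of the longest transcript its ranks were 103 to 118, 23 to 34, 22 to 42, and 50 and 124. By gain in mean CPM over normoxia NDRG1 ranked 1 of 19981 genes at 6 h (5454 CPM), 3 at 12 h (9015 CPM) and 10 at 24 h (8039 CPM). With library size as the only scaling the ranks were 1, 1 and 9. By log2 fold change it ranked 745, 384 and 994 of the 19981 genes.

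Within hypoxia no further step of NDRG1 was called by edgeR. From 6 h to 12 h its log2 fold change was 0.57 (standard error 0.22, edgeR adjusted p = 0.154, unadjusted 0.0211), with all 12 h libraries above all 6 h libraries. The step was called by DESeq2 (0.55, adjusted p = 0.0231) and by limma-voom with sample quality weights (0.63, adjusted p = 0.00634). These tools also called more of all genes for this step, 1919 and 4489 of 19981, against 989 in edgeR. Without 24 h replicate 1 or 2, which leaves 1 library at 24 h, edgeR called the step too (0.57 and 0.59). Those 2 fits likewise called more of all genes, so these calls are not particular to NDRG1. From 12 h to 24 h the value was -0.14 (edgeR adjusted p = 0.704) and the libraries overlapped. From 6 h to 24 h it was 0.44 (edgeR adjusted p = 0.161). Of the 4 members, 0 were called by edgeR at 12 h against 6 h, where 4.95% of all genes were called, with 2 at an unadjusted p under 0.05 and 1 by DESeq2. At 24 h against 12 h, where 28.4% of all genes were called, 0 were called, with 1 at an unadjusted p under 0.05 and 1 by DESeq2. At 24 h against 6 h 1 member, NDRG3, was called, against 42.4% of all genes.

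NDRG3 rose later and by far less. The gene (ENSG00000101079) lies on chromosome 20, 36651766 to 36746090, on the minus strand. The normoxic libraries held 2391, 2028 and 2316 NDRG3 counts, or 55.3, 54.1 and 55.7 CPM. At 6 h the counts were 1526, 1708 and 3000, or 52.1, 55.4 and 56.9 CPM. At 12 h they were 1930, 2176 and 2845, or 65.3, 64.5 and 65.0 CPM. At 24 h they were 1895 and 1384, or 81.1 and 75.4 CPM. The 6 h libraries overlapped with normoxia, whereas the 12 h libraries lay above it and the 24 h libraries above those of 12 h.

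Means of NDRG3 were 55.0 ± 0.845 CPM (SD, n = 3) in normoxia, 54.8 ± 2.42 (n = 3) at 6 h, 64.9 ± 0.406 (n = 3) at 12 h and 78.25 ± 3.998 (n = 2) at 24 h. The log2 fold change against normoxia was -0.0051 at 6 h (95% interval -0.22 to 0.21, edgeR adjusted p = 0.973). It was 0.24 at 12 h (edgeR adjusted p = 0.0867), which DESeq2 called (0.23, adjusted p = 0.0165), as did edgeR without 24 h replicate 1 (0.21, adjusted p = 0.0421) or 2 (0.23, adjusted p = 0.0273). At 24 h it was 0.51 (standard error 0.12, edgeR adjusted p = 0.00317), a 1.42-fold rise. From 6 h to 24 h it was 0.51 (standard error 0.12, edgeR adjusted p = 0.00532). Without 24 h replicate 2 these values at 24 h were 0.54 and 0.56, and both calls held. With library size as the only scaling the direction at 24 h turned, to -0.39 against normoxia and -0.069 against 6 h, neither called. That scaling put the median of all tested genes at -0.32, -0.50 and -0.97 at 6, 12 and 24 h, against -0.0021, -0.033 and -0.065 with TMM, so NDRG3 stood above the median gene at 12 h and 24 h under both scalings and slightly below it at 6 h. It also moved the higher calls from 47.6%, 47.2% and 48.8% of all calls to 27.6%, 20% and 16.4%. Both NDRG3 calls were also lost in limma-voom with sample quality weights (adjusted p = 0.0622 and 0.116) and with no filter on low counts (adjusted p = 0.125 and 0.11). With those weights 6169 and 2531 of all 19981 genes were called in these contrasts, against 12235 and 8479 in the main edgeR fit. With no filter 13132 and 8681 of 39835 were called.

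NDRG2 overlapped with its normoxic levels at 6 h and 12 h and was not called at any time. The gene (ENSG00000165795) lies on chromosome 14, 21016763 to 21070872, on the minus strand. Its counts were 371, 291 and 351 in normoxia, or 8.57, 7.76 and 8.44 CPM, and 249, 239 and 460 at 6 h, or 8.51, 7.75 and 8.72 CPM. At 12 h they were 245, 277 and 406, or 8.29, 8.21 and 9.27 CPM. At 24 h they were 223 and 222, or 9.54 and 12.1 CPM, both above every earlier library. Log2 fold changes against normoxia were 0.013 at 6 h (95% interval -0.28 to 0.31), 0.058 at 12 h (-0.24 to 0.35) and 0.39 at 24 h (0.057 to 0.72). None was called (edgeR adjusted p = 0.949, 0.769 and 0.062). At 24 h the call depended on the libraries and the tool: 0.49 without 24 h replicate 1 (edgeR adjusted p = 0.022), 0.19 without 24 h replicate 2 (edgeR adjusted p = 0.369), and 0.40 in DESeq2 (adjusted p = 0.0346). With library size alone the values were -0.31, -0.41 and -0.56 (edgeR adjusted p = 0.136, 0.0481 and 0.0164), against medians of all genes of -0.32, -0.50 and -0.97.

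NDRG4 was the least expressed paralog, and its 24 h libraries lay far apart. The gene (ENSG00000103034) lies on chromosome 16, 58462846 to 58513628, on the plus strand. Normoxic counts were 180, 194 and 195, or 4.16, 5.17 and 4.69 CPM. At 6 h the counts were 104, 112 and 284, or 3.55, 3.63 and 5.38 CPM, and at 12 h 128, 204 and 254, or 4.33, 6.05 and 5.80 CPM. At 24 h replicate 1 held 293 counts, or 12.5 CPM, the highest of all libraries, and replicate 2 held 30, or 1.63 CPM, the lowest. Log2 fold changes were -0.15 at 6 h (95% interval -1.07 to 0.77), 0.21 at 12 h (-0.71 to 1.13) and 0.62 at 24 h (-0.40 to 1.64), with edgeR adjusted p = 0.806, 0.729 and 0.319. The 24 h value was 1.41 without replicate 2 (edgeR adjusted p = 0.000558) and -1.57 without replicate 1 (edgeR adjusted p = 0.00207), each from a lone library assumed to vary like the other groups. The direction of NDRG4 at 24 h thus rested on which library was used.

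**Figure D2:**
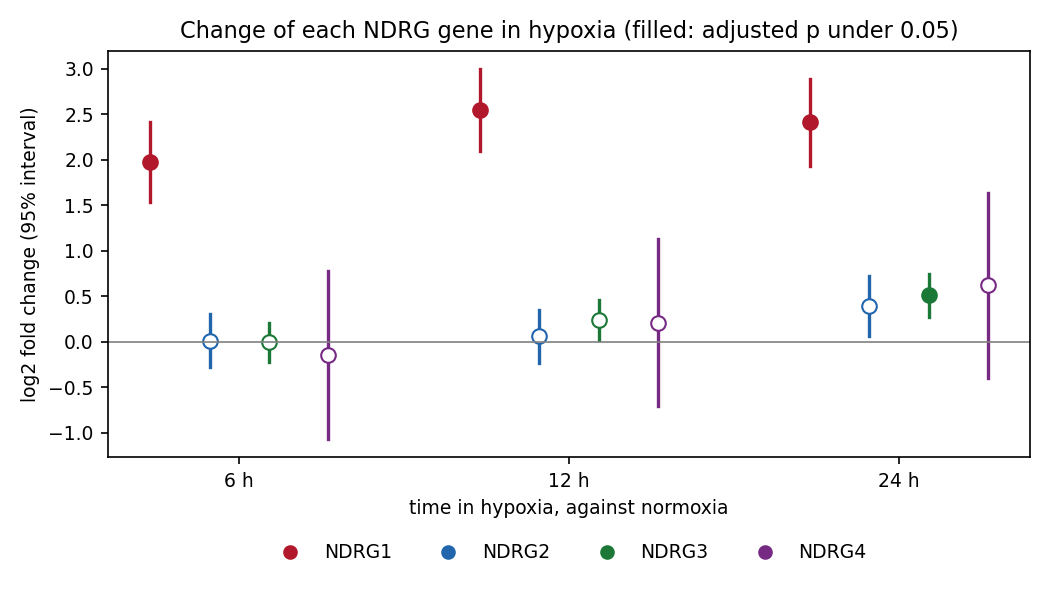
Log2 fold change of each NDRG gene (y axis) at 6, 12 and 24 h of hypoxia against normoxia (x axis), with 95% intervals as lines and filled points for calls by edgeR's quasi-likelihood test. NDRG1 is filled at all 3 times, between 1.98 and 2.55, and NDRG3 only at 24 h, at 0.51.

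Levels of the paralogs were compared per kilobase of length, as CPM per kilobase. The lengths came from GENCODE 44, which lacks some of the counted genes and so differs from the annotation used for counting. Exon lengths may therefore not be those that the reads were counted over. Over the union of a gene's annotated exons (12002 bases in NDRG1, 7550 in NDRG2, 3260 in NDRG3 and 9647 in NDRG4), the order was NDRG1, NDRG3, NDRG2 and NDRG4 at every time. In normoxia the mean levels were 154.9 ± 13.9, 16.9 ± 0.259, 1.09 ± 0.058 and 0.484 ± 0.0525 CPM per kilobase (SD, n = 3). At 6 h they were 609 ± 59.95, 16.8 ± 0.741, 1.10 ± 0.0674 and 0.434 ± 0.107 (n = 3), and at 12 h 906 ± 182, 19.9 ± 0.125, 1.14 ± 0.0787 and 0.559 ± 0.0962 (n = 3). At 24 h they were 825 ± 52.4, 24.0 ± 1.23, 1.43 ± 0.240 and 0.735 ± 0.799 (n = 2). Neighbours in this order did not overlap between libraries, except NDRG2 and NDRG4 at 24 h. The level of NDRG1 was 9.18 times that of NDRG3 in normoxia and 36.3, 45.5 and 34.4 times at 6, 12 and 24 h.

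NDRG1 has 61 annotated transcripts, so the union of its exons is long beside its longest transcript, of 3983 bases. With the longest transcript as length the order was the same, all neighbours were separate, and NDRG1 stood 25.3, 99.8, 125 and 94.6 times above NDRG3 at 0, 6, 12 and 24 h. Of the summed level of the family, NDRG1 held 89.3% ± 0.946 (SD, n = 3) in normoxia, 97.1% ± 0.380 (n = 3) at 6 h, 97.6% ± 0.526 (n = 3) at 12 h and 96.9% ± 0.393 (n = 2) at 24 h. NDRG3 held most of the rest, 9.78% ± 0.874 in normoxia and 2.70% ± 0.331, 2.21% ± 0.5004 and 2.83% ± 0.312 at the later times. With the longest transcript as length the share of NDRG1 was 95.5%, 98.8%, 99.04% and 98.8%. The summed level itself went from 173.4 ± 13.9 CPM per kilobase to 628 ± 59.5, 928 ± 182 and 851 ± 50.6.

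**Figure D3:**
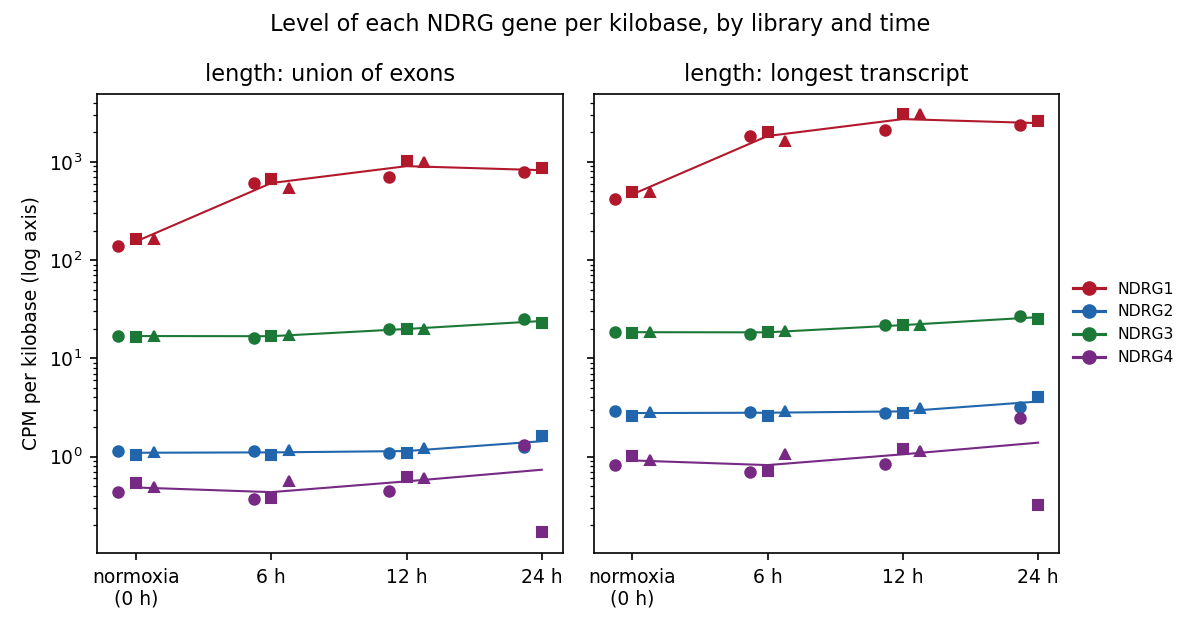
CPM per kilobase of each NDRG gene (y axis, log axis) in each library by time in hypoxia (x axis), with lines through the means and point shapes for replicates. The left panel divides by the union of exons and the right panel by the longest transcript, and NDRG1 lies above NDRG3, NDRG2 and NDRG4 in both.

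Ratios of paralogs within a library do not depend on how libraries are scaled. The count of NDRG1 was 30.2, 36.3 and 35.0 times that of NDRG3 in the normoxic libraries. It was 141.2, 144.5 and 115.5 times at 6 h, 128, 188.3 and 186.5 times at 12 h, and 116.6 and 137.1 times at 24 h. The lowest hypoxic ratio was thus above the highest normoxic one. On the log2 scale the mean ratio differed by 2.08 between the 8 hypoxic and 3 normoxic libraries (7.15 ± 0.271 against 5.08 ± 0.142, SD), with a 95% interval of 1.73 to 2.50 from the shifts that the permutation test did not reject. An exact two-sided permutation test gave p = 0.0121, the smallest that 8 libraries against 3 allow, and 0.0242 after Benjamini-Hochberg adjustment over the 6 pairs.

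NDRG1 also parted from NDRG2 and NDRG4. Its count was 194 to 253 times that of NDRG2 in normoxia and 753 to 1477 times in hypoxia, a log2 difference of 2.17 (9.98 ± 0.323, n = 8, against 7.81 ± 0.193, n = 3; exact permutation p = 0.0121, adjusted 0.0242). Against NDRG4 it was 379 to 414 times in normoxia and 753 to 6222 times in hypoxia, a log2 difference of 2.29 (10.9 ± 0.861, n = 8, against 8.63 ± 0.0651, n = 3; exact permutation p = 0.0121, adjusted 0.0242). At 6, 12 and 24 h alone the exact permutation p was again 0.1, 0.1 and 0.2 for each of these 2 pairs. In all 3 pairs the 8 hypoxic libraries lay above the 3 normoxic ones. All 3 pairs share the counts of NDRG1, whose own hypoxic and normoxic libraries did not overlap, so they are not separate results. Both ends of the range against NDRG4 in hypoxia were set by the 24 h libraries, 753 in replicate 1 and 6222 in replicate 2. Without any 1 of the normoxic libraries the adjusted p of all 3 pairs was 0.0889, with each pair at the smallest raw p that 8 libraries against 2 allow.

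No pair without NDRG1 passed this test. The log2 ratio of NDRG2 to NDRG3 changed by -0.093 (exact permutation p = 0.412, adjusted 0.618), with ratios of 0.144 to 0.155 in normoxia and 0.118 to 0.163 in hypoxia. In this pair 5 of the 8 hypoxic libraries lay below all normoxic ones and 2 above, and all 12 h libraries lay below. The 12 h difference was -0.18 (exact permutation p = 0.1, the smallest that 3 libraries against 3 allow). For NDRG2 to NDRG4 the change was 0.12 (exact permutation p = 0.909, adjusted 0.909), and for NDRG3 to NDRG4 it was 0.21 (exact permutation p = 0.667, adjusted 0.8). Without 24 h replicate 2 the last of these became -0.032 and the one before it -0.15, so both turned direction. The intervals for these pairs were -0.32 to 0.11, -0.92 to 1.34 and -0.60 to 1.23, so a 2-fold rise of either ratio to NDRG4 lay within them.

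**Figure D4:**
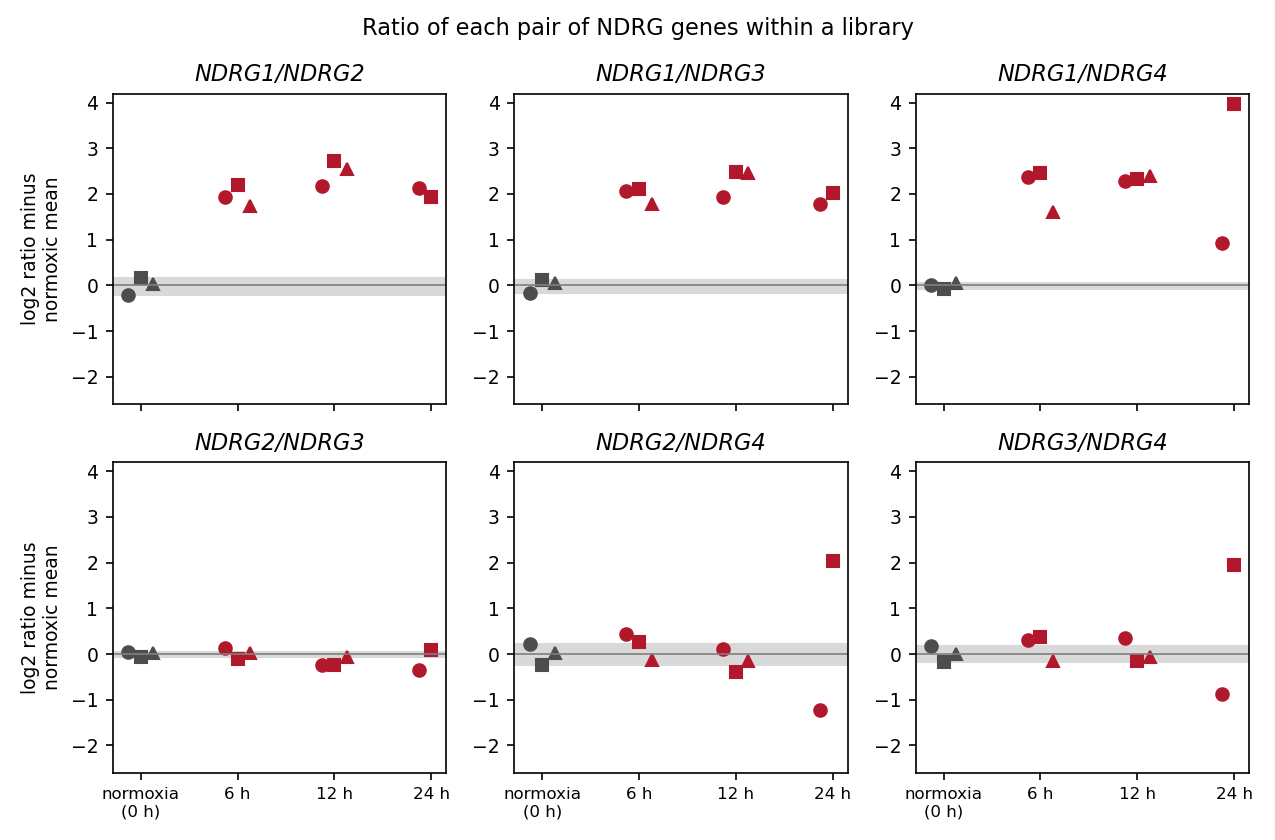
Log2 ratio of counts for each pair of NDRG genes (y axis), minus its mean over the normoxic libraries, in each library by time (x axis); grey bands show the normoxic range and point shapes the replicates. The 3 pairs with NDRG1 lie above the band in all 8 hypoxic libraries, whereas the pairs without it scatter around 0, except for the 24 h libraries of pairs with NDRG4. For NDRG2 to NDRG3, 5 of the 8 hypoxic libraries lie below the band and 2 above.

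The paralogs are related in sequence, so it was checked whether reads of one could be counted for another. Between the coding sequences of the MANE Select transcripts, 66.4% to 73.4% of aligned bases were identical, and between their translations 57.6% to 67.2% of residues. NDRG1 was the longest protein, with 394 residues against 371, 375 and 352 for NDRG2, NDRG3 and NDRG4. It alone held 10-residue windows that recur, up to 3 times, whereas the other proteins held 0 such windows. Of the distinct 36-base windows in all annotated transcripts of a member, 0 occurred in another member, and the same held for 75-base windows. The longest runs shared by a pair of coding sequences were 17 to 26 bases.

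The longest of these runs joins NDRG2 and NDRG4 and is shown because it marks how short the closest exact match between paralogs is. The lines give 66 bases of each coding sequence, 5′ to 3′, from MANE Select transcripts in GENCODE release 44 on GRCh38, with the shared 26 bases in capitals. Each stretch crosses an exon junction, within chr14:21017742-21018031 (minus strand) for NDRG2 and chr16:58509308-58510665 (plus strand) for NDRG4. The shared run starts at base 925 of the NDRG2 and base 841 of the NDRG4 coding sequence.
NDRG2: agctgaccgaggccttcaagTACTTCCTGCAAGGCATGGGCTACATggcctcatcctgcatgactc
NDRG4: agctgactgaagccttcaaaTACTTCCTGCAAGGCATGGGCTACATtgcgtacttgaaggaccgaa
Reads of at least 36 bases were kept by the authors, so the run is shorter than the shortest read.

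Some windows of the members occurred in genes outside the family. For NDRG1 5.53% of the 36-base windows were shared, all with ENSG00000289316, a long noncoding RNA that was not among the counted genes. It shares 753 exon bases with NDRG1 on the same strand. For NDRG2 4.51% of 36-base and 1.63% of 75-base windows were shared, for NDRG3 4.07% and 0.648%, and for NDRG4 0.0281% and 0. The 75-base windows of NDRG2 came from TPPP2 and ENSG00000258604, which overlap its exons on the other strand by 236 and 173 bases. Neither had more than 1 count in any library. The microRNA gene MIR6717, with 73 bases in NDRG2 exons, was at 0 counts. The strand setting of the counting was not given in the sources used here. Without strand, reads from NDRG2 and from genes on the other strand cannot be told apart where their exons overlap.

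Promoter windows from RefSeq (GRCh38.p14, each around an annotated start) matched 2 of the 4 members, NDRG2 with 5 windows and NDRG4 with 4. Hypoxia-inducible factors are known to bind a short core, so the letters ACGTG and GCGTG were searched on both strands, with overlaps allowed. At least 1 of them was in 48.4% of all 35116 windows, and ACGTG in 21.4%. None of the 9 windows held ACGTG. The core GCGTG was in 3 windows of NDRG2, once each, of which 2 windows overlap, and in 1 window of NDRG4, 4 times. The NDRG2 window at the MANE Select start and 2 NDRG4 windows are shown, on the strand of the gene and with any cores in capitals (CACGC is GCGTG read on the other strand). No window of NDRG1 or NDRG3 was available to set beside them.
NDRG2 chr14:21025012-21025311 (minus strand): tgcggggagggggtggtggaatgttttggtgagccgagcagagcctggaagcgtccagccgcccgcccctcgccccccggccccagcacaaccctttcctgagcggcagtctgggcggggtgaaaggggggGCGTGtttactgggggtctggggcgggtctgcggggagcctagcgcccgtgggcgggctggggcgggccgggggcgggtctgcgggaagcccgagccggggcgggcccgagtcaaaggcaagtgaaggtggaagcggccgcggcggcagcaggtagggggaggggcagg
NDRG4 chr16:58463465-58463764 (plus strand): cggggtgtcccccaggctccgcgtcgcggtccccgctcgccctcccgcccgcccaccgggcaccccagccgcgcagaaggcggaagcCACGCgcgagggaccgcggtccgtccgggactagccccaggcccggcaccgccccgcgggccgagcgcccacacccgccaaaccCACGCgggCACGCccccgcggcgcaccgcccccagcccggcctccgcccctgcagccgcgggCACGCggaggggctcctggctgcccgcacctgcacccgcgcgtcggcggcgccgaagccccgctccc
NDRG4 chr16:58499893-58500192 (plus strand): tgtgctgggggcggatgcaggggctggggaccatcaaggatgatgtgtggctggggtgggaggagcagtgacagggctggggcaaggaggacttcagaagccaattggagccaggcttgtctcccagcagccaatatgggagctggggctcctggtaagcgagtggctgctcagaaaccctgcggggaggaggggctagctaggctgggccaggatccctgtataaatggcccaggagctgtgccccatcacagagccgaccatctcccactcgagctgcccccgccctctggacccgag
The second of these is the NDRG4 window with 4 cores, 36428 bases before the MANE Select start, and the third lies at that start and holds none. A match of 5 letters is a description of the sequence and says nothing about binding.

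Genes known to regulate the family, or to sense oxygen, were called in both directions, as were all genes. Of 23 such genes 22 were tested, and HIF3A, with at most 2 counts, was not. At 6 h 8 were higher and 7 lower, at 12 h 8 and 7, and at 24 h 8 and 10, with median log2 fold changes of 0.030, 0.21 and -0.44, against -0.0021, -0.033 and -0.065 for all tested genes. These were 36.4% higher at each time and 31.8%, 31.8% and 45.5% lower, where all genes gave 25.1%, 24.2% and 29.9% higher and 27.7%, 27.1% and 31.3% lower. Scaled by library size alone, 2713, 2116 and 2222 of all 19981 tested genes were higher and 7130, 8444 and 11305 lower. Of this list 5, 5 and 4 were then higher and 7, 10 and 13 lower. The largest change was in EGLN3, an oxygen-sensing prolyl hydroxylase and known HIF target, which rose from 2.56 ± 1.07 CPM to 191.5 ± 49.7, 223 ± 81.6 and 278 ± 83.6 (log2 fold changes 6.23, 6.45 and 6.77). EGLN1, the prolyl hydroxylase also named PHD2, rose from 3.44 to 14.8, 12.0 and 8.42 CPM (2.105, 1.80 and 1.29, edgeR adjusted p = 0.00023 at most, with the 24 h call lost under library size alone). Other genes of the list went the other way. EGLN2 was called lower at 12 h and 24 h (-1.35 and -1.95), as was VHL (-0.58 and -1.67), and ARNT at 6 h and 24 h (-0.85 and -1.25). LDHA, which makes the lactate that NDRG3 binds, rose from 361 ± 19.98 to 3238 ± 679, 3868 ± 343 and 5258 ± 656 CPM (3.16, 3.42 and 3.86). DNMT3B, a DNA methyltransferase, fell from 14.45 ± 1.84 to 2.70, 2.15 and 2.29 CPM (-2.42, -2.75 and -2.65).

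The transcription factors named from the list gave less even values. MYC, known as a repressor of NDRG1, rose from 94.7 ± 9.56 CPM to 303 ± 97.85, 235 ± 41.2 and 151.4 ± 28.7, with log2 fold changes of 1.68, 1.31 and 0.68 (edgeR adjusted p = 6.51e-05, 0.000445 and 0.0277). The 24 h call of MYC was lost without any 1 of the normoxic libraries or without 24 h replicate 1, where it was 0.41, and its direction turned with library size alone (-0.19). HIF1A was at 201 CPM in normoxia and 239, 272 and 272.5 CPM after. The main edgeR fit did not call HIF1A at any time (log2 fold changes 0.25, 0.44 and 0.44, edgeR adjusted p = 0.24, 0.0518 and 0.0644). Its 12 h change was called in 8 alternatives, among them limma-voom, DESeq2 and the fit of only the groups compared, and not in the others. At 24 h HIF1A was also called by DESeq2 and by edgeR without 6 h replicate 3. Without 24 h replicate 1 its 24 h value was 0.066 and without replicate 2 it was 0.68 and called. EPAS1 was called at 12 h (0.38, edgeR adjusted p = 0.0236) and not at 6 h or 24 h (0.26 and -0.16). Its 12 h call was lost without any 1 of the normoxic libraries or without 12 h replicate 2 or 3. With library size alone HIF1A and EPAS1 were below 0 at all 3 times. MYCN, the gene from which the family takes its name, stayed near detection, with at most 53 counts. Its 24 h call (3.12, edgeR adjusted p = 0.0045) turned to -0.40 without 24 h replicate 1.

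A list of 10 tested genes held the SGK and GSK3 kinases that phosphorylate NDRG1, together with PDPK1, MTOR and the MTOR complex subunits RICTOR, MLST8 and MAPKAP1, which act upstream of SGK1. Of these 2 were higher and 3 lower at 6 h, 2 and 4 at 12 h, and 3 and 5 at 24 h, with median log2 fold changes of -0.030, -0.19 and -0.26. The shares, 20%, 20% and 30% higher and 30%, 40% and 50% lower, stand beside the 25.1%, 24.2% and 29.9% higher and 27.7%, 27.1% and 31.3% lower of all genes. Scaled by library size alone, 2713, 2116 and 2222 of all 19981 tested genes were higher and 7130, 8444 and 11305 lower. Of this list 1 was then higher at each time and 5, 5 and 7 were lower. SGK1, the kinase best known for NDRG1, rose from 38.6 ± 4.81 CPM to 105.7 ± 44.4, 158.8 ± 56.6 and 193.8 ± 49.1 (log2 fold changes 1.45, 2.04 and 2.33). Its relatives SGK2 and SGK3 fell, SGK2 from 2.28 to 0.447, 0.738 and 0.426 CPM and SGK3 from 16.9 to 4.495, 4.04 and 3.32 CPM. Their log2 fold changes were -2.27, -1.65 and -2.40 for SGK2 and -1.90, -2.07 and -2.34 for SGK3. MTOR, whose complex with RICTOR activates SGK1, fell at -0.56, -0.79 and -1.90, and the 6 h call (edgeR adjusted p = 0.0288) was lost without any 1 of the normoxic libraries or without 6 h replicate 1 or 2. GSK3B, which phosphorylates NDRG1 after SGK1, stood at 0.18, -0.31 and -0.39, and was called only at 24 h (edgeR adjusted p = 0.0499), a call lost in 12 of 20 alternatives, while its 6 h direction turned with library size alone (-0.14). Without either 24 h library 4 of the 10 genes were higher at 12 h in place of 2.

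Partners and effectors reported for NDRG proteins gave 19 tested genes, of which 7 were higher and 6 lower at 6 h, 6 and 6 at 12 h, and 6 and 5 at 24 h. These shares, 36.8%, 31.6% and 31.6% higher and 31.6%, 31.6% and 26.3% lower, were near those of all genes (25.1%, 24.2% and 29.9% higher, 27.7%, 27.1% and 31.3% lower). The median log2 fold changes were 0.23, 0.15 and -0.26, the last -0.013 without 24 h replicate 2. Under library size alone 2713, 2116 and 2222 of all 19981 tested genes were higher and 7130, 8444 and 11305 lower. Of this list 4, 2 and 2 were then higher and 7, 8 and 14 lower. Without 24 h replicate 1 8 genes were lower at 24 h in place of 5. RAB4A, a GTPase of recycling endosomes and a known NDRG1 effector partner, rose from 42.9 ± 0.192 CPM to 62.1 ± 0.387, 66.1 ± 5.49 and 128.9 ± 30.4 (log2 fold changes 0.53, 0.62 and 1.585, the first and second not called with library size alone). ERRFI1, a feedback inhibitor of EGFR signalling, rose at log2 fold changes of 2.23, 1.74 and 1.61, the last 0.82 and not called without 24 h replicate 1. ERBB2, a receptor tyrosine kinase, fell from 99.1 ± 4.125 CPM to 55.55 ± 7.10, 53.45 ± 3.001 and 38.6 ± 8.28 (-0.83, -0.89 and -1.36).

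A list of genes known to rise in hypoxic tumors, from which NDRG1 was left out, served for comparison, with LDHA shared with the list of regulators. Of 14 genes 13 were tested, and MIF, with at most 3 counts, was not. Of these 9 were called higher at 6 h, 10 at 12 h and 12 at 24 h, against 25.1%, 24.2% and 29.9% of all genes. In the list 1 gene was called lower at 12 h, and the median log2 fold changes were 1.55, 1.93 and 2.58. At 6 h limma-voom called 10 higher and 1 lower, as did edgeR without either 24 h library. ADM, encoding adrenomedullin, rose from 54.4 ± 6.50 CPM to 463.5 ± 141.8, 966 ± 271 and 1437 ± 636.5 (log2 fold changes 3.09, 4.15 and 4.725). P4HA1, a collagen prolyl hydroxylase, rose from 28.95 to 214, 255.5 and 363 CPM (2.89, 3.14 and 3.65), and the glycolytic enzyme TPI1 from 227 to 934, 1191 and 2622 CPM (2.04, 2.39 and 3.53, the last 2.94 without 24 h replicate 2). NDRG1, at 1.98, 2.55 and 2.41, thus lay above the median of this list at 6 h and 12 h and below it at 24 h. Without 24 h replicate 2 NDRG1 stood at 2.327 and the median of the list at 2.319, so the order at 24 h rested on that library.

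**Figure D5:**
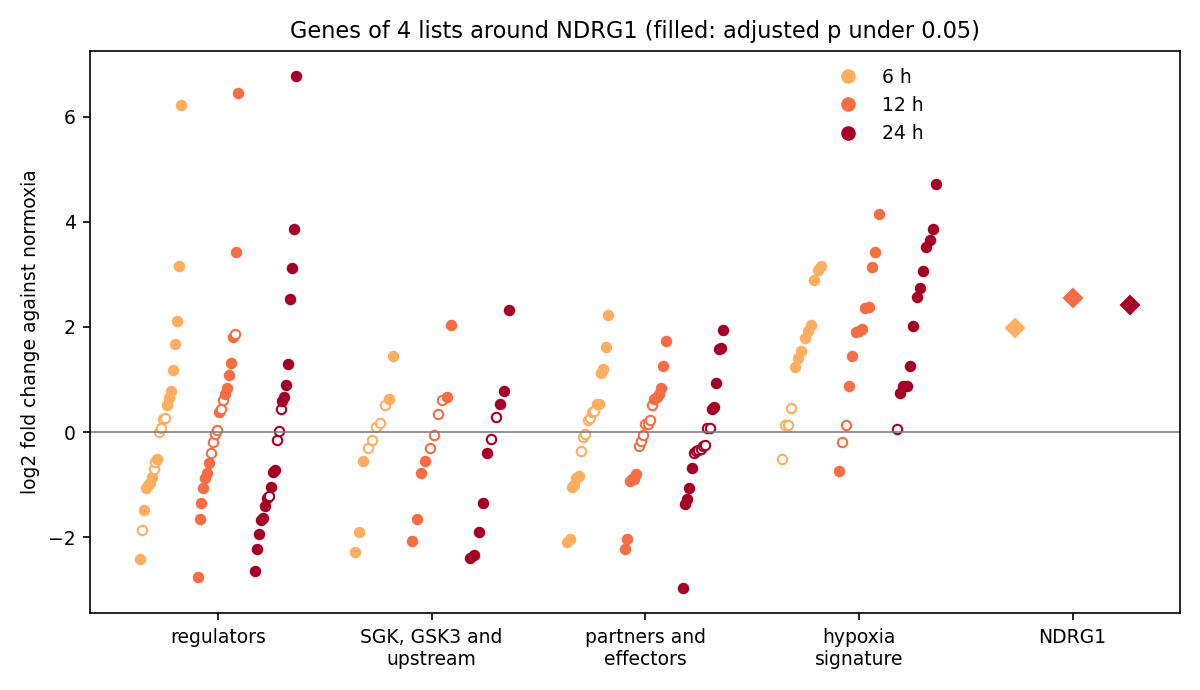
Log2 fold change against normoxia (y axis) of each tested gene in 4 lists (regulators, the list of SGK, GSK3 and upstream genes, partners, and hypoxia genes), with NDRG1 as diamonds at the right, at 6, 12 and 24 h (colours); within a list and time genes are ordered by value, and filled points were called by edgeR. The hypoxia list lies mostly above 0, with medians of 1.55, 1.93 and 2.58, whereas the other lists spread to both sides.

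The genes whose course over the 11 libraries was most like that of a member were found by the root mean square difference of mean-centred log2 CPM among 13938 genes with a symbol and at least 1 CPM on average. This is a description over libraries that share depth and scaling. For NDRG1 these were GPER1, STIP1, COTL1, ALKBH5 and HPCAL1, with differences of 0.221, 0.228, 0.262, 0.269 and 0.274, against a spread of NDRG1 about its own mean of 1.06. The log2 fold changes of GPER1 were 2.23, 2.91 and 2.945, and those of STIP1 1.97, 2.19 and 2.41. For NDRG3 they were SLC41A3, THOC5, LRRC28, CTDNEP1 and SIRT2 (0.0701 to 0.0777, own spread 0.199), and for NDRG2 UBE2E2, SCPEP1, SUMF2, ZNRF1 and RALY (0.0785 to 0.0938, own spread 0.17). For NDRG4 they were DOCK11, FRRS1, SPOCK1, MTUS1 and MUC20P1, at 0.284 to 0.335 against a spread of 0.661. Among the paralogs NDRG2 and NDRG3 were closest, at 0.145, which placed NDRG3 at 132 among the neighbours of NDRG2 and NDRG2 at 126 among those of NDRG3. NDRG1 lay 0.953 to 1.23 from the others.

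The nearest tested genes with a symbol on each side of the members moved in both directions. Beside NDRG1, TG (102271 bases away) was not called, at -0.98, -0.74 and -0.18. On its other side ST13P6 (105983 bases away), a pseudogene whose reads may belong to its parent gene, rose at 1.04, 1.504 and 1.72. Beside NDRG3, DSN1, a kinetochore gene 5700 bases away, fell from 46.45 ± 0.741 CPM to 18.1, 19.9 and 21.1 (log2 fold changes -1.35, -1.22 and -1.13), whereas RAB5IF was not called (0.91, 0.96 and 1.03). Beside NDRG2, SLC39A2 was called lower at 6 h only (-1.18) and ZNF219 at 24 h only (-0.70). ARHGEF40, which lies within the span of NDRG2 on the other strand without sharing exons, fell at -1.13, -1.25 and -1.41, whereas RNASE7, placed likewise, was not called (-0.68, 0.17 and 0.38). Beside NDRG4, GINS3 was called higher at 12 h only (0.61) and SETD6, 1850 bases away, at no time (-0.22, -0.21 and 0.12).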

How the data were processed

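Stranded libraries of RNA longer than 200 nucleotides were built from RWPE1 cells in 1 batch of 12 and read over 75 cycles, single-ended, per the labels. The authors trimmed reads (Trimmomatic 0.39, FastQC), aligned them with STAR to hg38 and deposited the featureCounts table as raw counts per Ensembl gene. The handling of reads with several matches was not given in the sources used here. The deposited counts of 11 libraries were analysed, and totals ran from 27496009 to 49488345.

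From these counts CPM with TMM scaling and edgeR 4.0.16 quasi-likelihood tests (R 4.3.3) were computed over all 11 libraries with time as the only term. filterByExpr (minimum count 10, minimum total 15) kept 19981 of 60676 genes, p-values were adjusted by Benjamini-Hochberg, and 0.05 was the threshold. The study used limma-voom, which was run here as an alternative (limma 3.58.1), as were DESeq2 1.42.0, other scalings and filters, a replicate block, and each library left out. The 95% intervals of log2 fold changes are normal intervals from the standard error. Log2 CPM used a prior count of 2. Ratios of paralogs used counts plus 0.5 and exact two-sided permutation tests (scipy 1.17.1). In counts simulated for 19300 genes at 24 h against 0 h, edgeR called 83 of 94 genes with a log2 change of 2 and 31 of 98 with a change of 1. The simulation changed few genes, evenly in both directions, and held no library that stood apart. In the data 61.2% of genes were called at 24 h, so these rates need not carry over.

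The members and gene lists were chosen with earlier results of these data known. Named genes were the members, HIF1A, EPAS1, MYC, MYCN, SGK1 and GSK3B, up to 4 genes per list called in 1 direction at all 3 times (largest mean change, at least 1 CPM), genes that overlap or neighbour a member, and the 5 nearest in pattern. Values of 1 gene that the rule named and of 1 marker are not reported here. ARHGEF40, RNASE7, EGLN2, VHL and ARNT were named after their values were seen. Annotation was GENCODE 44 on GRCh38, which held 60357 of the gene IDs. The settings tried on the gene lists and on the rank of NDRG1 by gain were chosen after seeing the data. Same-numbered libraries of different times did not deviate together (correlations -0.156 to 0.207), so numbers were not used as pairs.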

Additional observations from a re-analysis of the deposited data

Results flagged for a closer look

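NDRG3 changed differently at 2 times under the same contrast with normoxia. Its log2 fold change against normoxia was 0.51 at 24 h and -0.0051 at 6 h, and the difference between them, tested as 24 h against 6 h, was 0.51 (standard error 0.12, edgeR adjusted p = 0.00532, exact permutation p = 0.2, the smallest that 2 libraries against 3 allow). Both 24 h libraries, at 81.1 and 75.4 CPM, lay above the 6 h libraries, at 52.1 to 56.9. Leaving out single libraries gave 0.43 to 0.56. With library size alone the difference was -0.069 and not called.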

How the results depend on the processing

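The rise of NDRG1 against normoxia was called in all 20 alternatives at each time. Limits are the 24 h group of 2 libraries, of which 1 stands apart, the choice of scaling, and the low counts of NDRG2 and NDRG4. The replicate block changed no call: the number of members called was 1, 1 and 2 at 6, 12 and 24 h against normoxia, and 0, 0 and 1 for 12 h against 6 h, 24 h against 12 h and 24 h against 6 h, and the numbers did not pair the libraries. The causes of the changes listed next were not tested.

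With library size alone NDRG2 stood at -0.31, -0.41 and -0.56 at 6, 12 and 24 h, NDRG3 at -0.23 and -0.39 at 12 and 24 h, and NDRG4 at -0.25 and -0.096. Within hypoxia that scaling gave NDRG2 -0.11 for 12 h against 6 h, NDRG2 -0.15 and NDRG3 -0.16 for 24 h against 12 h, and NDRG1 -0.17, NDRG2 -0.26 and NDRG3 -0.069 for 24 h against 6 h. At 6 h NDRG2, near 0, was -0.036 with limma-voom and sample quality weights, -0.025 with no filter, -0.073 with at least 10 counts in every library and -0.0017 with only the groups compared. NDRG2 at 12 h was -0.044 with at least 10 counts in every library. NDRG3 at 6 h was 0.0026 in DESeq2 and 0.0019 with median-of-ratios scaling. NDRG4 at 24 h against 12 h was -0.16 in limma-voom and -0.18 with sample quality weights. NDRG3 lost its call at 24 h with sample quality weights (0.50 against normoxia and 0.5152 against 6 h) and with no filter (0.40 and 0.44), and against 6 h with only the groups compared (0.48).

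The number of members called at 12 h was 2 with sample quality weights, DESeq2, library size alone and only the groups compared. At 24 h it was 1 with sample quality weights and with no filter, and 3 in DESeq2 (NDRG1, NDRG2 and NDRG3). For 12 h against 6 h it was 1 with sample quality weights and DESeq2, for 24 h against 12 h 1 in DESeq2, and for 24 h against 6 h 0 with sample quality weights, library size alone and only the groups compared. With no filter the 1 member called at 24 h against 6 h was NDRG4 (0.70, edgeR adjusted p = 0.0399) in place of NDRG3. Higher calls made up 60.3% of all genes called at 24 h with sample quality weights. By longest transcript the share of NDRG1 was 95.45%, 98.8%, 99.04% and 98.75%, of NDRG3 3.80%, 0.998%, 0.816% and 1.05%, of NDRG4 0.187%, 0.0450% and 0.0384% at 0, 6 and 12 h, and of NDRG2 0.144% at 24 h.

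Leaving out single libraries gave 1 to 2 members called at 12 h, 2 to 4 at 24 h, 0 to 1 for 12 h against 6 h, 0 to 2 for 24 h against 12 h and 1 to 3 for 24 h against 6 h, the higher counts each without a 24 h library. NDRG2 then lay between -0.038 and 0.065 at 6 h, -1.6e-05 and 0.085 at 12 h, and -0.014 and 0.080 for 12 h against 6 h, and NDRG3 from -0.032 to 0.033 at 6 h. NDRG4 at 24 h lay between -1.57 and 1.41 against normoxia, -1.75 and 1.20 against 12 h, and -1.40 and 1.56 against 6 h. Log2 differences of ratios ranged from 2.07 to 2.26 for NDRG1 to NDRG2, 1.999 to 2.13 for NDRG1 to NDRG3, 2.05 to 2.49 for NDRG1 to NDRG4, -0.15 to 0.31 for NDRG2 to NDRG4 and -0.032 to 0.37 for NDRG3 to NDRG4. With library size alone, chosen after seeing the data, the lists at 24 h had 4 regulators called higher and 13 lower, 1 and 7 of the kinase list, 2 and 14 partners, and 8 and 1 hypoxia genes. Of all 19981 tested genes that scaling called 2222 higher and 11305 lower at 24 h.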
